A study of Homo sapiens with 12 samples.

Results

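The 54 genes described here are G2 and mitosis genes, a list in common use for scoring cells by cell cycle stage, and were found by matching gene names in a count table of 60670 genes. All 54 were found once each, and all 54 passed the filter on low counts, as did 15916 genes in all. The table holds 12 RNA-seq libraries of H295R, a human cell line from an adrenocortical carcinoma that makes steroid hormones. The cells of 4 libraries were wild type (WT), another 4 came from cells with less DLK1 (knockdown, KD) and another 4 from cells that over-express it (OE). All were RNA from the same line, collected at 70% confluence, and the replicates are numbered 3 to 6 in each group. The construct or agent behind the KD and OE cells, any control vector in the WT cells, and whether a line was 1 clone or a pool were not given in the sources used. Nothing in the labels says that replicates came from separate cultures, so p-values measure the spread between these libraries, which may be technical.

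Cells copy their DNA in S phase, prepare for division in G2 and separate the copies in mitosis. The genes of that last stage code for the kinase CDK1 and its cyclins, the kinetochores that attach chromosomes to the spindle, the spindle motors, the checkpoint and the ubiquitin ligase that ends mitosis, and the machinery that divides the cell. Their mRNAs rise together late in the cycle, mainly through the MuvB complex with B-MYB and FOXM1, which act at the cell cycle genes homology region (CHR), and through NF-Y, which binds CCAAT boxes. In adrenocortical tumours the share of cells in division is part of how pathologists grade the disease. DLK1 is a membrane protein of the Notch ligand family that marks progenitor cells of the adrenal cortex.

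The promoters show what these genes share in sequence. RefSeq (GRCh38.p14) promoters, 250 bases before to 50 bases after each start, were matched by symbol for 45 of the 54 genes and gave 58 promoters. BIRC5, ANP32E, CDCA2, UBE2C, HMGB2, TPX2, TTK, AURKA and PIMREG are named only. CHR letters (TTTGAA or TTTAAA on either strand) were in 74.1% of the members' promoters (exact binomial 95% interval 61.0 to 84.7%) and in 24.0% of all 35116 promoters of the same length. A CCAAT box on either strand was in 65.5% (51.9 to 77.5%) against 34.6%. Both stood in the same promoter in 53.4% (39.9 to 66.7%) against 9.27%. In the 200 bases before the start alone the shares with both were 44.8% and 5.25%. The intervals treat the promoters as independent. As 9 genes gave more than 1 promoter, and promoters of 1 gene overlap in part, the intervals are likely too narrow. A letter match is not a binding site. The 200 bases before the start are printed here in the direction of transcription for 6 genes that hold both elements there. TOP2A, KIF23, MKI67 and CENPF have the highest levels among such genes, and CDC20 and HMMR were added after their values were seen because they changed. Capitals mark CHR letters and CCAAT boxes on either strand, and some of them overlap. The stretches are chr17:40417897-40418096 on the minus strand (TOP2A), chr15:69414149-69414348 on the plus strand (KIF23), chr10:128126424-128126623 on the minus strand (MKI67), chr1:214602995-214603194 on the plus strand (CENPF), chr1:43358781-43358980 on the plus strand (CDC20) and chr5:163460432-163460631 on the plus strand (HMMR), all in GRCh38.p14.
TOP2A: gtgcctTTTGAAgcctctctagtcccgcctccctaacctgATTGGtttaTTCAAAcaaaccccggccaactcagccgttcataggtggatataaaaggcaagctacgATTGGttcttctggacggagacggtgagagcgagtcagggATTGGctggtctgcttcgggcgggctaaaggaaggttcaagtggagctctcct
KIF23: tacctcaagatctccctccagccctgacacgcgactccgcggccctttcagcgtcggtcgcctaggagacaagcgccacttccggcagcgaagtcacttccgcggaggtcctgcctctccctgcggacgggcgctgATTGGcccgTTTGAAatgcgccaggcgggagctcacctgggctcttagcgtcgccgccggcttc
MKI67: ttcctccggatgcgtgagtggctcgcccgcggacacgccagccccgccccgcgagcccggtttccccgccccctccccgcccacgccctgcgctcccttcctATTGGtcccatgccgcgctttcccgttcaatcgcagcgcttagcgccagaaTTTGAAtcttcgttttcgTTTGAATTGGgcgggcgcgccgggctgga
CENPF: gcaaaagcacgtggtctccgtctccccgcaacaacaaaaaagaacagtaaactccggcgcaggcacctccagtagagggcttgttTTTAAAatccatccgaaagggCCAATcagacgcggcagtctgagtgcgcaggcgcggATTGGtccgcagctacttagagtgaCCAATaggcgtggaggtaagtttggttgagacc
CDC20: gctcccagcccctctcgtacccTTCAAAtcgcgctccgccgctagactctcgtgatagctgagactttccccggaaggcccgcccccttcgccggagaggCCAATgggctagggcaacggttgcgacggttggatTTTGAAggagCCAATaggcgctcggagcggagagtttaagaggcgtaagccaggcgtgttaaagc
HMMR: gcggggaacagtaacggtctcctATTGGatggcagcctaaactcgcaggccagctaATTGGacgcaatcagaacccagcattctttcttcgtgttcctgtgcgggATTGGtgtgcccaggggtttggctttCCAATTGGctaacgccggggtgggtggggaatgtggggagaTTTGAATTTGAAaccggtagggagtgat
In the KIF23 promoter a reverse CCAAT box (ATTGG) lies just before a CHR, 64 and 55 bases before the start counted from the first letter. CDC20 holds 2 CHR and 2 CCAAT boxes, and those nearest the start begin 65 and 55 bases before it. HMMR carries 5 CCAAT boxes and a doubled TTTGAA whose last copy begins 22 bases before the start. The plot of promoter elements gives the shares for all 58 promoters.

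**Figure D1:**
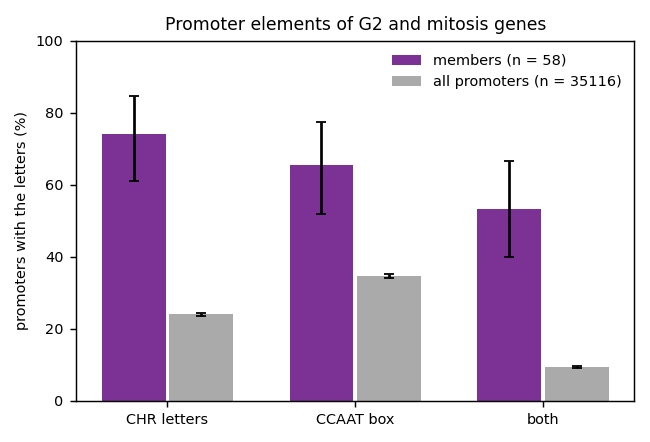
Share of promoters (%, y axis) that hold CHR letters, a CCAAT box or both, for 58 promoters of the G2 and mitosis genes (purple) and all 35116 RefSeq promoters of 300 bases (grey). Error bars are exact binomial 95% intervals that treat promoters as independent. The members' bars are higher for each element, most of all for both together, 53.4% against 9.27%.

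Library sizes were 9303266 to 13797397 counts, and levels are given in CPM, counts scaled to library sizes that were adjusted by the trimmed mean of M-values (TMM). DLK1 itself was at 2796, 2735, 2679 and 2490.0 CPM in the WT libraries, 1487, 1263, 1238 and 1364 CPM in the KD libraries and 3176, 3020.0, 3350.0 and 3305 CPM in the OE libraries. The 3 groups did not overlap, and relative to WT the log2 fold change was -1.0 ± 0.05 (standard error, SE) in KD and 0.26 ± 0.05 in OE, with adjusted p = 4.07e-09 and 0.00693 (edgeR). KD replicate 3 stood apart from the other libraries, with 4.99% of its counts from mitochondrial genes against 6.65 to 8.37% in the other 11. Of 9 adrenocortical markers 7 were tested (CYP11B1 and MRAP were under 1 CPM), and their summed level was 1590 to 1670 CPM in WT, 1270 to 1480 in KD and 1510 to 1630 in OE. Chromaffin markers summed to 32.9 to 35.3, 55.7 to 68.2 and 31.3 to 38.0 CPM in these groups, with TH and DBH at 0 counts, and fibroblast markers to 17.5 to 21.8, 15.7 to 22.8 and 16.7 to 19.8 CPM, with COL1A2 at 0. Endothelial markers (CDH5 at 0) reached at most 1.09 CPM and immune markers (CD3E and MS4A1 at 0) at most 2.0 CPM. The part of these markers in the results on the mitotic genes was not tested.

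Together the 54 genes took 1.19 to 1.26% of each library. Their summed level was 12199 to 12589 CPM in WT, 12201 to 12470 in KD and 11863 to 12159 in OE, so every OE library was below every WT and KD library in summed CPM. As shares of raw counts, OE (1.19 to 1.21%) overlapped WT (1.2 to 1.24%) and stayed below KD (1.23 to 1.26%). The sum includes TUBB4B, a gene with less certain counts, which averaged 819.9 CPM in WT, 849.6 in KD and 716.0 in OE. Whether the summed levels stay apart without TUBB4B was not tested. In bulk RNA, fewer cells in division and less of these mRNAs per cell cannot be told apart. The median gene of the list, taken as its log2 ratio to the WT mean, was at -0.0039 to 0.018 in the WT libraries, -0.0014 to 0.034 in KD and -0.083 to -0.010 in OE. These shifts are small: the list's median log2 fold change was 0.019 for KD against WT, -0.035 for OE against WT and -0.068 for OE against KD, where the medians of all 15916 genes were 0.0050, 0.0024 and -0.0023. The box plot of the members by library shows that all 4 OE medians lie below 0 and that KD replicate 6 lies near 0 while the other KD libraries lie above it.

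**Figure D2:**
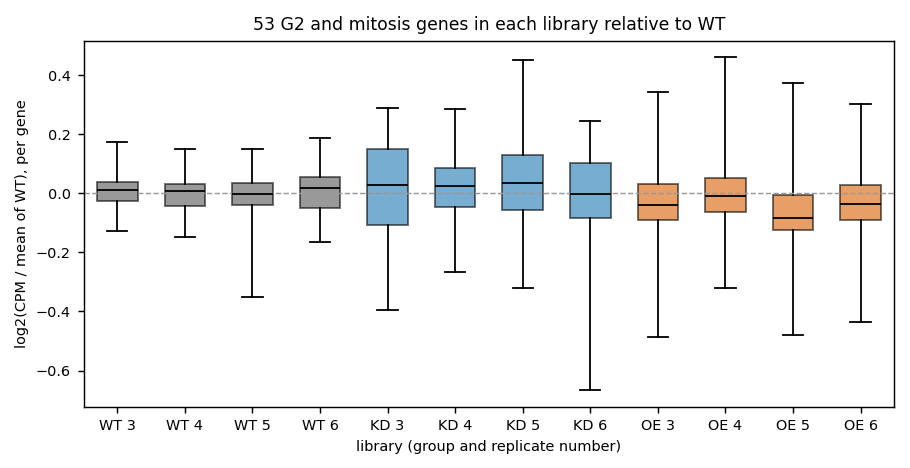
log2 of CPM over the WT mean (y axis) for 53 of the 54 genes, all but NUSAP1, in each of 12 libraries (x axis). Lines in the boxes are medians, boxes span the quartiles and whiskers reach the lowest and highest gene. Medians are -0.083 to -0.010 in OE and -0.0014 to 0.034 in KD.

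Genes were called with edgeR's quasi-likelihood test at an adjusted p under 0.05 (Benjamini-Hochberg over all genes tested). In KD against WT 6 of the 54 were called, 4 higher (HMMR, JPT1, CKS1B and TACC3) and 2 lower (CDCA2 and CENPE), where 9.06% of all genes were called, 3.84% higher and 5.22% lower. With 7.41% of the members higher and 3.7% lower, the list was near that background. In OE against WT 7 were called, 2 higher (KIF20B and HMGB2) and 5 lower (PIMREG, CDCA2, GTSE1, TUBB4B and CKS2), or 3.7 and 9.26% of the list, with 5.0% of all genes called, 2.13% higher and 2.87% lower. In OE against KD 14 were called, 2 higher (KIF20B and CENPE) and 12 lower (PIMREG, JPT1, HMMR, TUBB4B, CDC20, ANLN, AURKB, KIF2C, NDC80, TACC3, TTK and BIRC5). That is 22.2% of the list lower, against 6.55% of all genes, and 3.7% higher, against 7.27%, with 13.8% of all genes called. The shares over all genes are not matched for level. Of the 54 members 42 averaged over 100 CPM, while the filter's minimum count was 10. The first pair of comparisons shares the WT libraries, and each shares a group with the third.

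In all, 19 of the 54 genes were called somewhere and 35 nowhere, and CDCA2 was the only one called in both KD and OE against WT. Leaving NUSAP1 aside, the largest absolute log2 fold change was 0.345, 0.404 and 0.35 in the 3 comparisons, so no change reached 0.5. Groups did not overlap for 11 genes higher and 1 lower in KD against WT, where 5.94 and 6.86% of all genes did so. The counts were 2 higher and 8 lower in OE against WT (5.71 and 6.09% of all genes). For OE against KD they were 2 higher and 15 lower (8.42 and 7.77%). In either direction 12.8, 11.8 and 16.2% of all genes did not overlap in the 3 comparisons. In 10 of the 12 genes that were lower in OE than in KD, the WT mean lay between the means of those groups. HMMR and PIMREG were the exceptions. Picking genes as lower in OE than in KD itself favours a WT mean in between. The share over all genes lower in OE than in KD was not counted. Calls in KD against WT changed when single libraries were left out, and so did the counts over all genes. Those were 611 higher and 831 lower in the main fit. Without WT replicate 5 or KD replicate 6 only HMMR was called, 1 higher and 0 lower. Over all genes these fits gave 469 and 644, and 427 and 614. Without WT replicate 4 it was 1 higher and 4 lower, without WT replicate 6 or KD replicate 3 it was 2 and 1, without KD replicate 4 or 5 it was 5 and 4, and without WT replicate 3 or any 1 OE library it was 4 and 1. Over all genes it was 528 and 721 without WT replicate 4, 407 and 625 without WT replicate 6 and 482 and 754 without KD replicate 3. It was 616 and 828 without KD replicate 4, 725 and 832 without KD replicate 5 and 464 and 664 without WT replicate 3. Without 1 OE library it was 567 to 611 and 769 to 818. In OE against WT the 2 calls higher became 1 without WT replicate 3 or 6 or OE replicate 3, 4 or 6, and the 5 calls lower became 3 without WT replicate 3 or OE replicate 3 or 6. Over all genes, 339 higher and 457 lower became 237 and 326 without WT replicate 3 and 312 and 439 without WT replicate 6. Without OE replicate 3, 4 or 6 they became 246 and 359, 270 and 374, and 248 and 319. In OE against KD there were 8 to 13 lower calls with any 1 library left out (763 to 1097 over all genes, 1043 in the main fit). The 2 higher calls there became 4 or 5 without WT replicate 6 or KD replicate 4 and 1 without KD replicate 6 or OE replicate 3 or 4. The higher calls over all genes, 1157 in the main fit, became 1146, 1103, 877, 900 and 902 in these fits. Without KD replicate 3, the library that stood apart, OE against KD had 3 higher and 9 lower and a median of -0.068 (1005 and 796 over all genes).

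**Figure D3:**
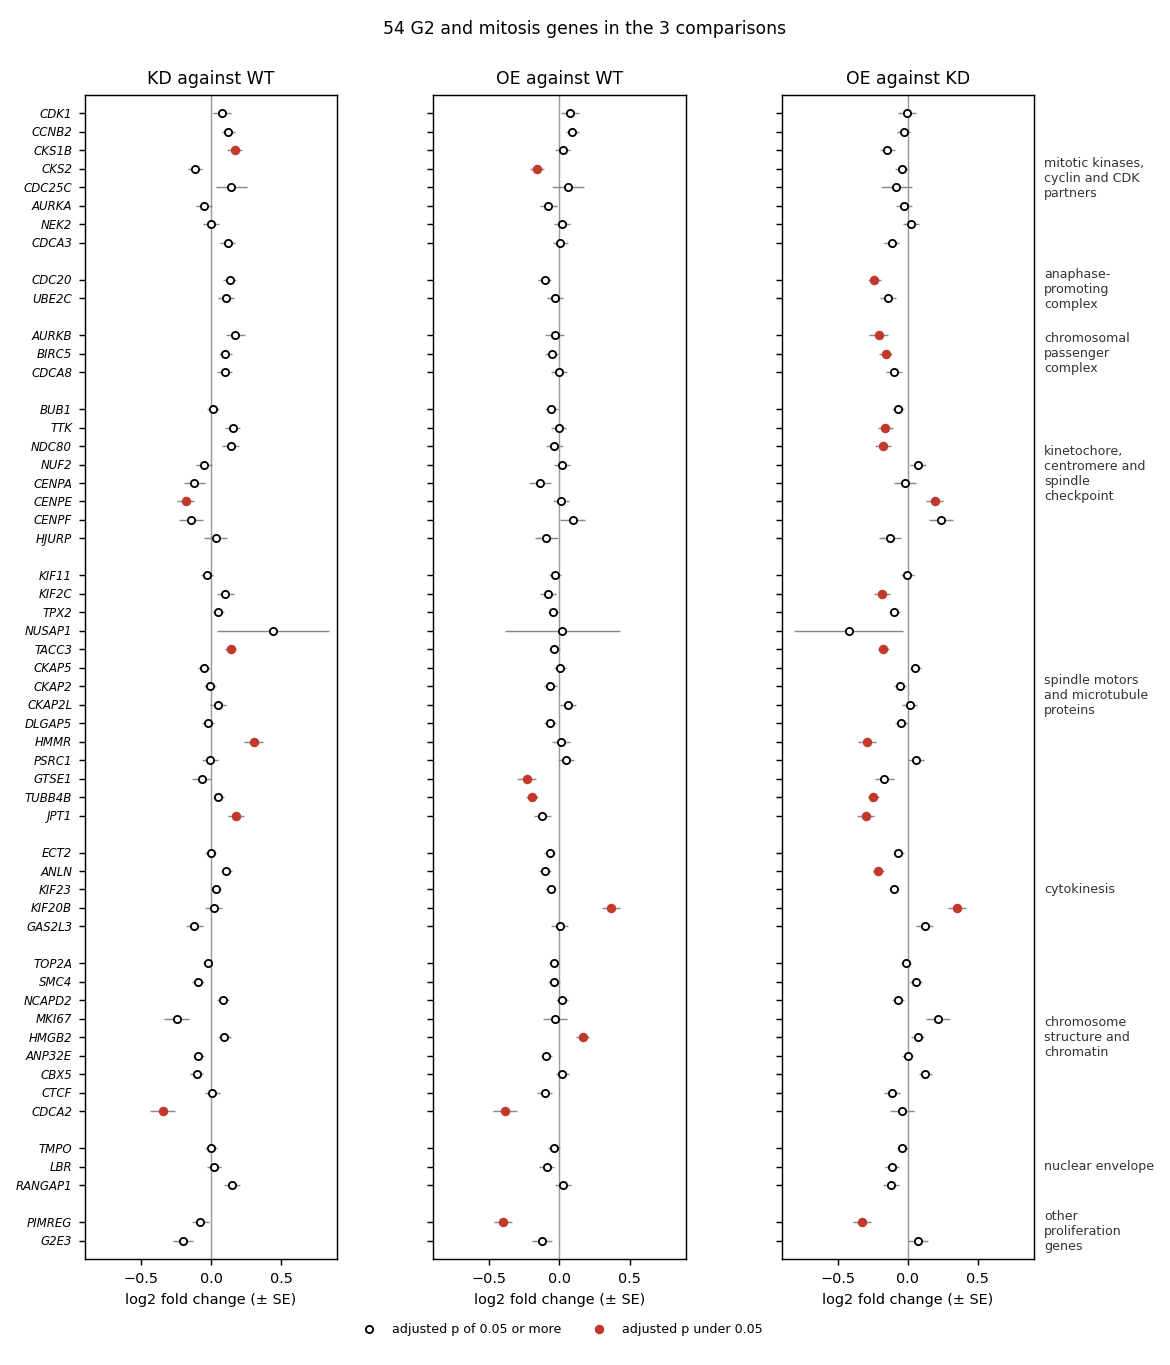
log2 fold change with its SE (x axis) of the 54 genes (y axis), grouped by role, in KD against WT, OE against WT and OE against KD. Red points have an adjusted p under 0.05, and open points do not. Most OE against KD points lie left of 0, 40 of 54 by the list's count, and 12 of the red ones lie there.

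Levels spanned a wide range. Over the 12 libraries the mean was over 100 CPM for 42 genes and over 10 CPM for 53. TOP2A was the highest at 917.8 CPM, and CDC25C, at 23.4 CPM, was the lowest after NUSAP1. Lengths are exonic, with all annotated exons of a gene merged. Per kilobase of that length, TUBB4B (377 CPM per kb) and CKS2 (359) came first, then TOP2A (143) and ANP32E (132). G2E3 (6.36) and CDC25C (7.00) were low. NUSAP1, which bundles spindle microtubules, stood at 1.43 CPM (5 to 24 counts a library). In GENCODE 29 it shares 1787 exonic bases with AC087721.2 on the same strand, which had 0 counts, and its values are not read further. Exonic bases are shared with another annotated gene by 21 of the 54, by 5 of them on the same strand (CENPA, NUSAP1, JPT1, GAS2L3 and CBX5). JPT1 shares 48 bases with SUMO2 there. ANLN, PIMREG and TUBB4B share bases with a gene on the other strand. Whether the authors' counting used strand is unknown here, so these values are less certain, as are those of TUBB4B, CKS1B, CKS2 and HMGB2, which have close paralogs or pseudogenes.

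Among the mitotic kinases, cyclin and CDK partners (8 genes), 1 was higher in KD and 1 lower in OE against WT, and none was called between OE and KD. CKS1B, a small subunit that docks on CDKs and on the ubiquitin ligase of CDKN1B, was at 146, 144, 149 and 157 CPM in the WT libraries, 165, 164, 173 and 169 CPM in the KD libraries and 157, 155, 131 and 162 CPM in the OE libraries. Every KD library was above every WT library, and the OE libraries spread over the WT range. The log2 fold change in KD against WT was 0.17 ± 0.05 (SE; 1.13-fold, adjusted p = 0.0327, edgeR), and OE against KD, at -0.15 ± 0.05, missed the threshold with adjusted p = 0.0534. The call in KD was lost when WT replicate 3, 4 or 5 or KD replicate 5 or 6 was left out (adjusted p up to 0.0987 and log2 fold change 0.16 to 0.20 over all alternatives). Its paralog CKS2 was at 242, 227, 232 and 235 CPM in the WT libraries, 203, 209, 236 and 216 CPM in the KD libraries and 203, 224, 199 and 212 CPM in the OE libraries. All OE libraries were below all WT libraries, while KD overlapped both. OE against WT gave -0.16 ± 0.05 (adjusted p = 0.0352, edgeR). The call was lost when WT replicate 3, 5 or 6 or OE replicate 3, 5 or 6 was left out and with library sizes alone and with the replicate number as a block (adjusted p up to 0.152 and log2 fold change -0.20 to -0.13 over all alternatives).

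CDK1, the kinase that starts mitosis, was at 284, 278, 280.0 and 277 CPM in the WT libraries, 258, 316, 331 and 278 CPM in the KD libraries and 308, 312, 264 and 295 CPM in the OE libraries. The KD and OE libraries lay on both sides of the narrow WT range, and no call was made. Its 95% interval was -0.043 to 0.20 for the log2 fold change in KD and -0.049 to 0.20 in OE against WT. CCNB2, a B-type cyclin that activates CDK1, was at 191, 198, 195 and 191 CPM in the WT libraries, 209, 211, 216 and 208 CPM in the KD libraries and 199.5, 218, 195 and 215 CPM in the OE libraries. The KD libraries were all above the WT libraries, but the difference of 0.12 ± 0.05 did not pass (adjusted p = 0.0849, edgeR). AURKA, a kinase of centrosomes and spindle poles, was at 109, 114, 111 and 105 CPM in the WT libraries, 112, 106, 101 and 106 CPM in the KD libraries and 101, 114, 97.2 and 105 CPM in the OE libraries. The 3 groups overlapped, with an interval of -0.14 to 0.082 in OE against KD. The other 3 genes of this role, CDC25C (the phosphatase that switches CDK1 on), NEK2 (a centrosome kinase) and CDCA3 (a trigger of mitotic entry), were called nowhere, with log2 fold changes of 0.14, -0.00077 and 0.12 in KD against WT.

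The anaphase-promoting complex is the ubiquitin ligase that ends mitosis, and CDC20 is its activator there. CDC20 (chr1:43358955-43363203, plus strand) was at 186, 189, 179 and 171 CPM in the WT libraries, 213, 197, 189.9 and 195 CPM in the KD libraries and 170.2, 174, 162 and 169 CPM in the OE libraries. All KD libraries were above all others and the OE libraries overlapped WT by 1 library on each side. OE against KD was -0.24 ± 0.05 (SE; 0.848-fold, adjusted p = 0.000226, edgeR), while KD against WT (0.13 ± 0.05, adjusted p = 0.0690) and OE against WT (-0.10 ± 0.05, adjusted p = 0.236) did not pass. UBE2C, the ubiquitin-conjugating enzyme of the complex, ranged from 125.8 to 161 CPM and gave -0.14 ± 0.06 in OE against KD, not called. CDC20 carries both a CHR and a CCAAT box in the sequence printed for it.

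The chromosomal passenger complex corrects wrong attachments and steers cytokinesis. Of its 3 genes on the list, AURKB, its kinase, and BIRC5 (survivin), which brings it to centromeres, were lower in OE than in KD. AURKB was at 75.03, 72.3, 73.1 and 77.7 CPM in the WT libraries, 78.7, 89.5, 89.9 and 78.0 CPM in the KD libraries and 64.0, 68.5, 81.5 and 76.2 CPM in the OE libraries. OE and KD overlapped, and OE was spread widely, from 64.0 to 81.5 CPM. The difference was -0.21 ± 0.07 (adjusted p = 0.0291, edgeR), and its call was lost when KD replicate 4 or 5 or OE replicate 3 or 4 was left out and with GC and length offsets (adjusted p up to 0.173 and log2 fold change -0.27 to -0.15 over all alternatives). BIRC5 was at 167, 185, 184 and 179 CPM in the WT libraries, 189, 187, 194 and 198 CPM in the KD libraries and 173, 172, 167 and 177 CPM in the OE libraries. KD was above both other groups without overlap, and OE against KD gave -0.16 ± 0.05 (adjusted p = 0.0164, edgeR). This was lost when KD replicate 6 or OE replicate 5 was left out and with GC and length offsets (adjusted p up to 0.0700 and log2 fold change -0.17 to -0.11 over all alternatives). CDCA8 (borealin) gave -0.10 ± 0.06 there and was not called.

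Of the 8 kinetochore, centromere and spindle checkpoint genes, 1 was lower in KD against WT, none was called in OE against WT, and 1 was higher and 2 lower in OE against KD. TTK (MPS1), the kinase that starts the checkpoint signal, was at 124, 111, 117 and 117 CPM in the WT libraries, 133, 132, 134 and 125 CPM in the KD libraries and 115, 126, 114 and 114 CPM in the OE libraries. KD exceeded WT in every library, and OE replicate 4 alone reached into the KD range. OE against KD was -0.16 ± 0.05 (adjusted p = 0.0344, edgeR), a call lost when KD replicate 3, 4 or 5 or OE replicate 3, 5 or 6 was left out and with no filter on low counts and with the replicate number as a block (adjusted p up to 0.102 and log2 fold change -0.20 to -0.15 over all alternatives). NDC80, the outer kinetochore protein that grips microtubules, was at 90.9, 96.6, 106 and 91.5 CPM in the WT libraries, 108, 97.2, 115 and 105 CPM in the KD libraries and 94.3, 99.95, 90.3 and 91.6 CPM in the OE libraries. KD replicate 4 lay within the OE range, and the difference between OE and KD was -0.18 ± 0.06 (adjusted p = 0.0385, edgeR). It was lost when KD replicate 3, 5 or 6 or OE replicate 3, 5 or 6 was left out and with the replicate number as a block (adjusted p up to 0.138 and log2 fold change -0.22 to -0.14 over all alternatives). Its partner NUF2 went the other way in sign, 0.070 ± 0.06, and was not called.

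CENPE, the kinesin that carries chromosomes to the spindle equator, was at 107, 101, 109 and 111 CPM in the WT libraries, 86.1, 108, 92.7 and 89.9 CPM in the KD libraries and 111, 108, 105 and 107 CPM in the OE libraries. Except for KD replicate 4, the KD libraries were below all others. KD against WT was -0.18 ± 0.06 (adjusted p = 0.0458) and OE against KD 0.19 ± 0.06 (adjusted p = 0.0217, edgeR). The call in KD was lost when WT replicate 3, 5 or 6 or KD replicate 3, 5 or 6 or OE replicate 3, 4, 5 or 6 was left out and with library sizes alone, with no filter on low counts, with the replicate number as a block, with only the 2 groups in the fit and with GC and length offsets (adjusted p up to 0.253 and log2 fold change -0.25 to -0.10 over all alternatives), 15 of 19 alternatives in all. That between OE and KD was lost when KD replicate 3 or 6 or OE replicate 3 or 4 was left out and with GC and length offsets (adjusted p up to 0.355 and log2 fold change 0.080 to 0.26 over all alternatives). CENPF, a large protein of the outer kinetochore, was at 474, 451, 513 and 544 CPM in the WT libraries, 375, 502, 452 and 466 CPM in the KD libraries and 537, 495, 531 and 551 CPM in the OE libraries. The groups overlapped and its log2 fold change in OE against KD, 0.24 ± 0.09, was not called (adjusted p = 0.113, edgeR). BUB1 (a checkpoint kinase), CENPA (the histone that marks centromeres) and HJURP (its chaperone) gave -0.073, -0.021 and -0.13 there and were called nowhere.

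The 14 spindle motor and microtubule genes, of the 54 on the list, held 10 of the 27 calls: 3 higher in KD against WT, 2 lower in OE against WT and 5 lower in OE against KD. The comparisons share groups, and HMMR, TACC3, JPT1 and TUBB4B each count more than once among these calls. HMMR, which organises spindle poles with TPX2 (chr5:163460203-163491945, plus strand), was at 67.8, 63.7, 68.7 and 68.6 CPM in the WT libraries, 79.0, 81.7, 91.7 and 79.0 CPM in the KD libraries and 63.7, 71.5, 66.8 and 68.8 CPM in the OE libraries. KD was above both other groups in every library, and WT and OE overlapped. KD against WT was 0.30 ± 0.07 (SE; 1.23-fold, adjusted p = 0.000875) and OE against KD -0.29 ± 0.06 (adjusted p = 0.000866, edgeR). It was the only member whose KD against WT call held under every one of 19 alternatives.

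TACC3, which bundles the fibres that pull on kinetochores (chr4:1721490-1745176, plus strand), was at 344, 334, 338 and 336 CPM in the WT libraries, 394, 361, 352 and 382 CPM in the KD libraries and 345, 316, 329 and 329 CPM in the OE libraries. All KD libraries were above all WT and OE libraries. KD against WT was 0.14 ± 0.04 (adjusted p = 0.0207) and OE against KD -0.17 ± 0.04 (adjusted p = 0.00168, edgeR). The second call held under every alternative, and the first was lost when WT replicate 4, 5 or 6 or KD replicate 3 or 6 was left out and with no filter on low counts and with GC and length offsets (adjusted p up to 0.106 and log2 fold change 0.087 to 0.17 over all alternatives). JPT1, a microtubule-associated protein (chr17:75135248-75168281, minus strand), was at 111, 103, 104 and 99.9 CPM in the WT libraries, 122, 116, 118 and 119 CPM in the KD libraries and 109.9, 91.2, 93.5 and 91.2 CPM in the OE libraries. KD was again the highest group without overlap, and OE replicate 3 stood above the other 3 OE libraries and within WT. KD against WT was 0.18 ± 0.06 (adjusted p = 0.0417) and OE against KD -0.30 ± 0.06, or 0.811-fold (adjusted p = 0.000143, edgeR). Here too the second call held throughout, and the first was lost when WT replicate 4, 5 or 6 or KD replicate 3, 5 or 6 was left out and with no filter on low counts and with GC and length offsets (adjusted p up to 0.141 and log2 fold change 0.13 to 0.21 over all alternatives).

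TUBB4B, a beta-tubulin that forms part of the microtubule itself (chr9:137241213-137243707, plus strand), was at 826, 833, 823 and 798 CPM in the WT libraries, 931, 802, 779.6 and 886 CPM in the KD libraries and 705, 709.9, 714 and 734 CPM in the OE libraries. The OE libraries lay close together and below all WT and KD libraries, while KD spread to both sides of WT. OE against WT was -0.20 ± 0.04 (0.873-fold, adjusted p = 0.000830) and OE against KD -0.25 ± 0.04 (adjusted p = 8.76e-06, edgeR). Both calls held under every alternative, but with GC and length offsets OE against KD was -0.16. KD against WT, at 0.051 ± 0.04, was not called. GTSE1, a microtubule-tip protein that also restrains p53, was at 89.1, 96.1, 81.4 and 81.0 CPM in the WT libraries, 92.7, 81.7, 73.4 and 84.1 CPM in the KD libraries and 69.9, 74.6, 76.1 and 74.9 CPM in the OE libraries. OE was below WT in every library and overlapped KD. OE against WT was -0.23 ± 0.07 (adjusted p = 0.0261, edgeR), and the call was lost when WT replicate 3 or 4 or OE replicate 3, 4 or 6 was left out and with library sizes alone (adjusted p up to 0.168 and log2 fold change -0.27 to -0.18 over all alternatives). KIF2C (MCAK), the kinesin that takes microtubules apart at centromeres, was at 105, 119, 108 and 105 CPM in the WT libraries, 127, 119, 115 and 108 CPM in the KD libraries and 104, 106, 100.4 and 102 CPM in the OE libraries. All OE libraries were below all KD libraries, and OE against KD was -0.19 ± 0.06 (adjusted p = 0.0197, edgeR). It was lost when KD replicate 3 or OE replicate 5 or 6 was left out (adjusted p up to 0.0961 and log2 fold change -0.22 to -0.15 over all alternatives). Besides NUSAP1, the 7 spindle genes called nowhere were KIF11 (the motor that separates spindle poles), TPX2 (which activates AURKA), CKAP5 (a microtubule polymerase), CKAP2, CKAP2L, DLGAP5 and PSRC1. In OE against KD they lay between -0.10 (TPX2) and 0.059 (PSRC1).

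**Figure D4:**
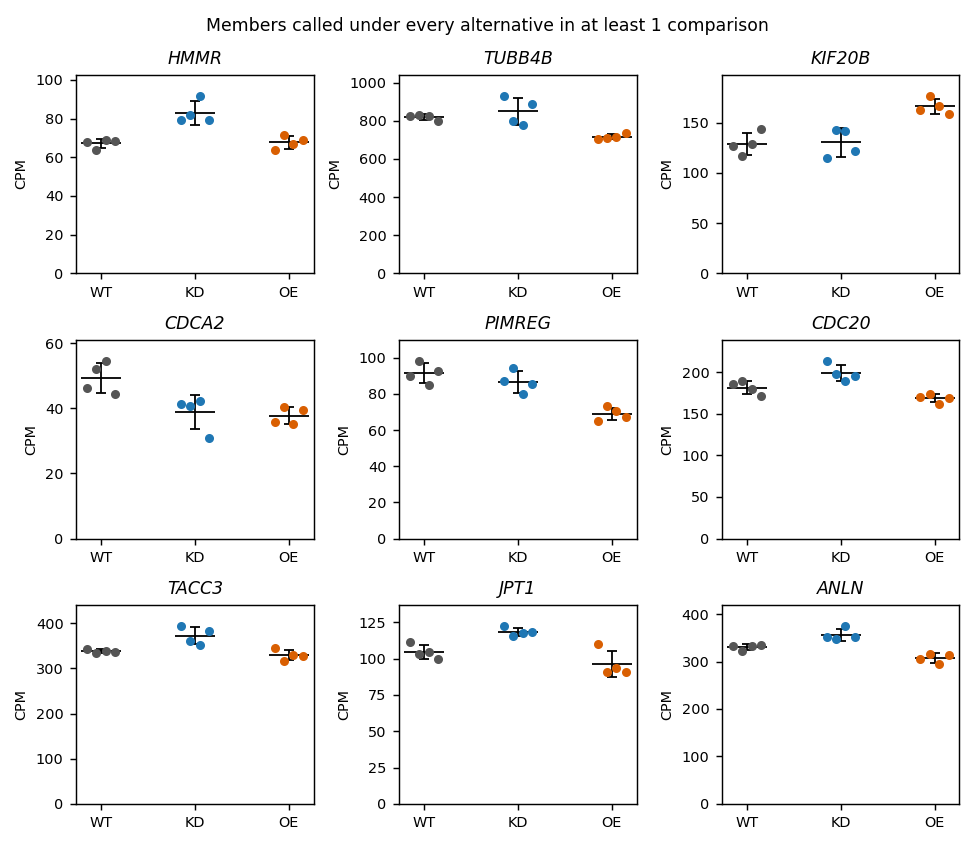
CPM (y axes, from 0) in each library of the 9 genes called in at least 1 comparison under every alternative. Points are libraries, long lines are group means and error bars are SD (n = 4 a group). KIF20B is highest in OE, TUBB4B and PIMREG are lowest in OE, and HMMR, TACC3 and JPT1 are highest in KD.

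Cytokinesis gave both directions. KIF20B, a kinesin of the central spindle and midbody (chr10:89701610-89774939, plus strand), was at 127, 117, 129 and 143 CPM in the WT libraries, 115, 143, 142 and 122 CPM in the KD libraries and 163, 177, 166 and 158 CPM in the OE libraries. Every OE library was above every other library, and WT and KD overlapped. OE against WT was 0.37 ± 0.06 (1.29-fold, adjusted p = 0.000112) and OE against KD 0.35 ± 0.06 (adjusted p = 8.77e-05, edgeR). ANLN, anillin, which links the contractile ring to the membrane (chr7:36389806-36453791, plus strand), was at 333, 322, 333 and 335 CPM in the WT libraries, 351, 348, 375 and 351 CPM in the KD libraries and 306, 317, 295 and 313 CPM in the OE libraries. The 3 groups did not overlap, with KD highest and OE lowest. OE against KD was -0.21 ± 0.04 (0.864-fold, adjusted p = 0.000101, edgeR), while KD against WT (0.11 ± 0.04, adjusted p = 0.0825) and OE against WT (-0.10 ± 0.04, adjusted p = 0.136) did not pass. KIF23 (MKLP1), the motor of the centralspindlin complex, was at 528, 532, 531 and 538 CPM in the WT libraries, 541, 527, 583 and 532 CPM in the KD libraries and 523, 509, 492 and 513 CPM in the OE libraries. The OE libraries were below all WT and KD libraries, but the log2 fold change in OE against KD, -0.10 ± 0.04, was not called (adjusted p = 0.0692, edgeR). ECT2, which turns on RhoA at the cleavage furrow, and GAS2L3 gave -0.068 and 0.12, also not called. KIF20B thus differed in sign from ANLN in both comparisons with OE.

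Chromosome structure and chromatin genes (9) had 1 call in KD and 2 in OE against WT and none between OE and KD. CDCA2 (Repo-Man), which brings a phosphatase back to chromosomes at anaphase (chr8:25458997-25507920, plus strand), was at 46.3, 51.9, 54.5 and 44.5 CPM in the WT libraries, 41.2, 40.8, 42.3 and 31.0 CPM in the KD libraries and 35.7, 40.5, 35.3 and 39.5 CPM in the OE libraries. KD and OE were both below WT without overlap, and they overlapped each other. KD against WT was -0.35 ± 0.09 (0.787-fold, adjusted p = 0.00554) and OE against WT -0.39 ± 0.09 (0.765-fold, adjusted p = 0.00265, edgeR). In KD, where replicate 6 was lowest, the call was lost when WT replicate 5 or KD replicate 6 was left out (adjusted p up to 0.0716 and log2 fold change -0.39 to -0.25 over all alternatives). The 20 nearest tested genes, 10 on each side on chromosome 8 (23528805 to 27633868), also had a low median, -0.23 in KD and -0.16 in OE against WT, with 5 and 3 of them called lower and 1 and 0 called higher. Over all genes 5.22 and 2.87% were called lower and 3.84 and 2.13% higher in these comparisons. For the other 18 called members the neighbours' medians ran from -0.097 (CENPE) to 0.087 (KIF2C) for KD against WT, from -0.099 (TUBB4B) to 0.076 (NDC80) for OE against WT and from -0.068 (ANLN) to 0.12 (TTK) for OE against KD. For most of these calls the neighbours' median had the sign of the gene's own call. Some of these medians were near 0, such as 0.012 (CKS1B, KD against WT), -0.0096 (PIMREG, OE against WT) and -0.013 (AURKB, OE against KD). How often signs agree for other genes was not counted. The exceptions were GTSE1 in OE against WT and TTK, TACC3, HMMR, KIF20B and PIMREG in OE against KD. Medians of the same sign were furthest from 0 for CENPE (-0.097 in KD against WT, 0.10 in OE against KD) and TUBB4B (-0.099 in OE against WT). In OE against KD, 5 of the 20 neighbours of BIRC5 were called lower and 0 higher. Of those of NDC80, 3 were called higher and 0 lower. The shares over all genes there were 6.55% lower and 7.27% higher. Of the neighbours of HMMR, 3 were called higher and 0 lower in OE against WT. Of those of CKS1B, itself called higher, 3 were called lower and 0 higher in KD against WT. Whether any of these genes shares in a change along its chromosome was not tested.

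HMGB2, a DNA-bending chromatin protein, was at 195, 198, 199.9 and 183 CPM in the WT libraries, 223, 199, 204 and 203 CPM in the KD libraries and 217, 218, 214 and 222 CPM in the OE libraries. OE was above WT without overlap, and KD reached from 199.1 to 223 CPM over both. OE against WT was 0.16 ± 0.05 (adjusted p = 0.0214, edgeR), a call lost when WT replicate 3 or 6 or OE replicate 3, 4 or 6 was left out and with no filter on low counts (adjusted p up to 0.110 and log2 fold change 0.14 to 0.19 over all alternatives). MKI67, the Ki-67 protein that coats mitotic chromosomes and whose staining is the usual count of dividing cells in these tumours, was at 508, 501, 589.8 and 632 CPM in the WT libraries, 447, 533, 444 and 457 CPM in the KD libraries and 517, 524, 580.2 and 559.6 CPM in the OE libraries. KD replicate 4 lay inside the WT range and the other 3 KD libraries below it. KD against WT was -0.25 ± 0.09 and was not called (adjusted p = 0.123, edgeR), though its unadjusted 95% interval was -0.42 to -0.075. In OE against WT the interval was -0.20 to 0.14. TOP2A, the topoisomerase that untangles sister DNA, was at 906, 906, 939 and 972 CPM in the WT libraries, 894, 937, 929 and 900.3 CPM in the KD libraries and 898, 915, 917 and 898 CPM in the OE libraries. It moved less than its spread, with an interval of -0.092 to 0.042 in KD and -0.10 to 0.030 in OE against WT. CTCF, a DNA-binding organiser of chromatin loops, was at 127, 139, 139 and 138 CPM in the WT libraries, 152, 131, 133 and 129 CPM in the KD libraries and 128, 123, 128 and 126 CPM in the OE libraries. OE was below KD without overlap and overlapped WT at WT replicate 3. CTCF was not called, with -0.11 ± 0.05 in OE against KD (adjusted p = 0.170, edgeR). SMC4 and NCAPD2 (condensin), ANP32E (a histone chaperone) and CBX5 (HP1 alpha) gave 0.056, -0.069, -0.0022 and 0.12 there, none called.

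No nuclear envelope gene was called. TMPO, the lamina protein LAP2, was at 404, 398, 369.8 and 389 CPM in the WT libraries, 382, 371, 408 and 399 CPM in the KD libraries and 373, 404, 374 and 368 CPM in the OE libraries. All groups overlapped, and OE against KD was -0.039 ± 0.04. LBR, the lamin B receptor, gave -0.11 and RANGAP1, the activator of Ran's GTPase, gave -0.12. PIMREG, a regulator of the metaphase to anaphase step (chr17:6444415-6451469, plus strand), was at 89.8, 98.2, 84.9 and 92.9 CPM in the WT libraries, 87.4, 94.3, 79.8 and 85.6 CPM in the KD libraries and 65.2, 73.2, 70.4 and 67.5 CPM in the OE libraries. The OE libraries were below all WT and KD libraries, which overlapped each other. OE against WT was -0.40 ± 0.06 (0.756-fold, adjusted p = 9.92e-06) and OE against KD -0.33 ± 0.06 (adjusted p = 0.000137, edgeR), and it held under every alternative. G2E3, a ubiquitin ligase of G2, was called nowhere, with -0.20 ± 0.07 in KD against WT (adjusted p = 0.0695).

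The rest of the mitotic machinery is a list of 133 other genes, 132 tested, drawn up by role. In KD against WT 11 were higher and 2 lower (median 0.072), for OE against WT 0 and 5 (-0.026), and for OE against KD 3 and 35 (-0.11), or 26.5% lower. Against the backgrounds of 3.84, 2.87 and 6.55% given above for the same directions, the shares were 8.33, 3.79 and 26.5%, and 22.2% of the 54 members were lower in OE than in KD. Among the regulators of mitotic transcription, FOXM1, the forkhead factor that drives these genes, was at 256 to 269 CPM in WT, 288 to 337 in KD and 249.6 to 270.2 in OE. KD was above both other groups, by 0.26 ± 0.05 against WT (adjusted p = 3.23e-05), and OE against KD was -0.27 ± 0.05 (adjusted p = 8.84e-06, edgeR). MYBL2 (B-MYB), at 124 to 147, 138 to 170.2 and 110.2 to 125 CPM, was lower in OE against WT (-0.22 ± 0.06, adjusted p = 0.0228) and against KD (-0.37 ± 0.06, adjusted p = 1.51e-05, edgeR). CCNB1, the main cyclin partner of CDK1, and PLK1, a mitotic kinase, were called nowhere, with -0.10 ± 0.04 and -0.14 ± 0.06 in OE against KD. E2F1 rose in KD by 0.35 ± 0.07 (adjusted p = 0.000142, edgeR).

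Genes of earlier stages were counted in the same way. Of 43 S phase genes 8 were higher and 0 lower in KD against WT (median 0.080), 0 and 1 for OE against WT (-0.012) and 0 and 11 for OE against KD (-0.099). That is 18.6% higher in KD against WT, where 3.84% of all genes were, and 25.6% lower in OE against KD, where 6.55% were. CDC45, a helicase subunit, gave 0.31 ± 0.06 in KD (adjusted p = 0.000531) and -0.44 ± 0.06 in OE against KD (adjusted p = 7.00e-07, edgeR), and PCNA, the sliding clamp, gave 0.25 ± 0.04 in KD (adjusted p = 4.57e-05, edgeR). Of 13 tested G1 genes and CDK inhibitors, CDKN1A (p21) was at 109 to 120.0 CPM in WT, 104 to 117 in KD and 135 to 151 in OE. It was higher in OE than in WT by 0.35 ± 0.05 (adjusted p = 5.76e-06) and than in KD by 0.39 ± 0.05 (adjusted p = 3.05e-07, edgeR). CDK6 gave -0.26 ± 0.06 in KD and 0.28 ± 0.06 in OE against WT (adjusted p = 0.00134 and 0.000532, edgeR). CCND2 was lower in both, with -0.38 ± 0.09 and -0.50 ± 0.09 (adjusted p = 0.00320 and 0.000120, edgeR).

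The members' differences between OE and KD varied with transcript composition. Over 53 members measured in the same 12 libraries (all but NUSAP1), the log2 fold change in OE against KD had r = -0.509 and rho = -0.513 with the GC content of the longest transcript. With log2 of the gene's exonic length, all exons merged, it had r = 0.455 and rho = 0.401. Over 15771 genes the same values were r = -0.13 and rho = -0.211 for GC and r = 0.0511 and rho = 0.103 for length. KIF20B (34.2% GC) and CENPE (35.3%), both called higher, lie at the AT-rich end, TUBB4B (59.5%), CDC20 (57.9%) and TACC3 (57.8%), called lower, at the GC-rich end. HMMR (36.7%), ANLN (40.0%) and NDC80 (40.1%) were lower at low GC. In KD against WT the correlation with GC was r = 0.328 and in OE against WT r = -0.258. With GC and length trends removed per library (an alternative added after seeing the data), 1 member was higher and 18 lower in OE against KD (median -0.091), 7 were higher and 1 lower in KD against WT (0.043), and 2 were higher and 7 lower in OE against WT (-0.049). The counts over all genes moved too, to 1012 higher and 1155 lower in OE against KD (1157 and 1043 without the offsets), 688 and 913 for KD against WT (611 and 831), and 452 and 687 for OE against WT (339 and 457). The part of GC content and length in any 1 gene's difference was not tested.

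**Figure D5:**
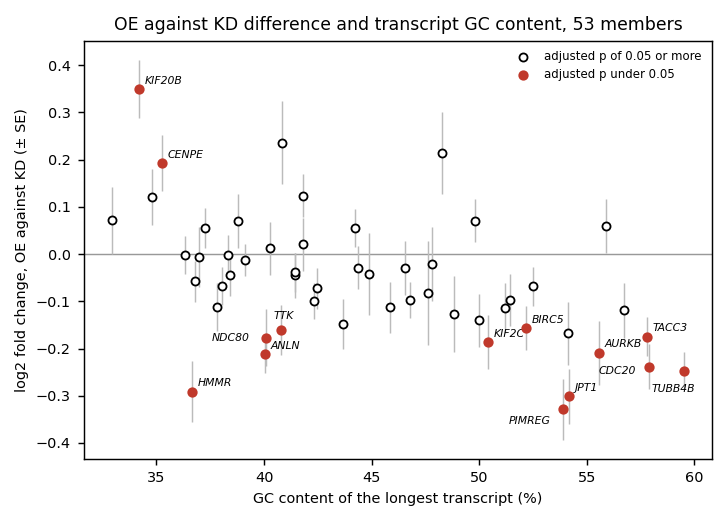
log2 fold change in OE against KD with its SE (y axis) against the GC content of the longest transcript in % (x axis) for 53 genes, all but NUSAP1. Red points are called and named. KIF20B and CENPE stand at the upper left, and most red points below 0 have higher GC, with HMMR, ANLN, NDC80 and TTK at lower GC (r = -0.509).

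By promoter class, for the 28 members with a CHR and a CCAAT box in 1 promoter the median log2 fold change was 0.035 for KD against WT, -0.017 for OE against WT and -0.057 for OE against KD, and for the 17 matched members without both it was 0.0082, -0.035 and -0.073. In OE against KD 1 was higher and 4 lower of the first group and 1 higher and 5 lower of the second. The difference between the classes was not tested.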

How the data were processed

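RNA-seq was made from 12 libraries of H295R cells (WT, KD and OE, 4 each), strand-specific and paired-end per the labels. The authors deposited raw counts, whole numbers per Ensembl gene and library. The submitters' processing notes name GRCh38, FastQC, HISAT2 1.03, DESeq2, and featureCounts of Subread. Which annotation release, strand setting and rule for multi-mapped reads was used, and whether pairs or single reads were counted, was not given in the sources used here. These bear on genes with paralogs or overlapping neighbours. Of 60671 genes, 1 with blank counts (ANK2) was left out, and 3 lines that name no gene stayed out of library sizes and tests.

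The test was that of edgeR 4.0.16 (R 4.3.3): filterByExpr (minimum count 10, minimum total 15), TMM factors, a quasi-likelihood fit (robust) over the 12 libraries (9 residual degrees of freedom) and Benjamini-Hochberg adjustment over 15916 genes, called under 0.05. The SE is the absolute log2 fold change over the square root of F, and 95% intervals use the normal quantile and are not adjusted. The common biological coefficient of variation was 7.38%. Coordinates, exonic length (all exons of a gene merged) and GC content (of the longest transcript) are from GENCODE 29. It uses GRCh38, the build the notes name, and had records for 58452 genes. The pipeline was tested on simulated data. Alternatives were RLE factors, library sizes alone, no filter, DESeq2 1.42.0, the replicate number as a block, only the 2 groups compared, each library left out in turn and, added after seeing the data, offsets for GC content and length.

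The members and the lists were chosen with earlier results of these data known. Given with values in every library were members called anywhere, the member with the highest mean of each role, and MKI67, CDK1, AURKA, AURKB, TOP2A, CCNB2 and CTCF. From other lists came at most 4 called genes per list and comparison by adjusted p, and FOXM1, MYBL2, CCNB1, PLK1 and CDKN1A. Promoter shares have exact Clopper-Pearson intervals. Intervals on counts cover counting error only. The labels name no batch.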

Additional observations from a re-analysis of the deposited data

Results flagged for a closer look

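Each group of 4 libraries was checked for a value set far from the other 3, by Dixon's gap test, for the CPM of each of the 54 members and for the list's summed CPM and median log2 ratio. Of 168 sets of 4 values, 8 were marked, all of them single members, and chance marks about 1 in 20. TTK stood at 125.7 CPM in OE replicate 4, above 113.5 to 114.5 CPM in the other OE libraries. JPT1 stood at 109.9 CPM in OE replicate 3, above 91.16 to 93.45 CPM. ANLN was low in WT replicate 4, at 322.0 CPM against 332.6 to 334.6 CPM, and high in KD replicate 5, at 374.5 CPM against 348.4 to 351.3 CPM. MKI67 was high in KD replicate 4, at 532.9 CPM against 444.2 to 457.4 CPM. CTCF was low in WT replicate 3, at 126.9 CPM against 138.3 to 138.8 CPM, and CDCA2 was low in KD replicate 6, at 30.98 CPM against 40.82 to 42.31 CPM. TMPO was high in OE replicate 4, at 403.7 CPM against 367.9 to 373.7 CPM. OE replicate 4 carried 2 of the marks. KD replicate 3, the library with the fewest mitochondrial counts, carried 0.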

How the results depend on the processing

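Of 27 calls of members, 13 held under each of 19 alternatives, 1 of 6 for KD against WT, 4 of 7 for OE against WT and 8 of 14 for OE against KD, and 0 changed direction. In KD against WT (4 higher, 2 lower, median 0.019) library sizes alone gave 10 higher, 1 lower and a median of 0.0502 (all genes 0.036), no filter 2 higher, DESeq2 7 higher, only the 2 groups in the fit 1 lower, and GC and length offsets 7 higher, 1 lower and 0.043. The counts over all genes were 611 higher and 831 lower, with library sizes alone 967 and 624, with no filter 569 and 779, with DESeq2 598 and 850, with only the 2 groups 518 and 748, and with the offsets 688 and 913. In OE against WT (2 higher, 5 lower) library sizes alone gave 3 lower (all genes 369, and 457 before) and no filter 1 higher (310, and 339 before). In OE against KD (2 higher, 12 lower) no filter and only the 2 groups each gave 4 higher, and the offsets 1 higher (all genes 1037, 1083 and 1012, and 1157 before). The causes were not tested. Without 1 library, KD against WT had 1 to 5 higher, 0 to 4 lower and a median of 0.0106 to 0.0268. OE against WT had 1 to 2, 3 to 5 and -0.0459 to -0.0279, and OE against KD 1 to 5, 8 to 13 and -0.0829 to -0.0485. Over all genes these fits gave 407 to 725 higher and 614 to 832 lower for KD against WT. They gave 237 to 466 and 319 to 598 for OE against WT, and 877 to 1146 and 763 to 1097 for OE against KD.

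With the replicate number as a block, 4 members were higher and 1 lower for KD against WT, 2 and 4 for OE against WT, and 3 and 10 for OE against KD. Over all genes the block gave 557 and 770, 313 and 422, and 1102 and 980. The main fit gave 611 and 831, 339 and 457, and 1157 and 1043. Deviations of libraries with the same number correlated at -0.0328 to 0.0713 (12 pairs) and of other pairs at -0.0853 to 0.0718 (36). That showed no sign of pairing by number, but it cannot exclude that same-numbered libraries were prepared together. The median SE was 0.0541, 0.0544 and 0.054 in the 3 comparisons, and the smallest log2 difference called was 0.14 (TACC3, KD against WT). TTK, at 0.16 in KD against WT (adjusted p = 0.0576, edgeR), was not called. Neither was CKS1B, at -0.15 in OE against KD (adjusted p = 0.0534, edgeR). Changes of about this size in uncalled members are thus not excluded. Gene levels per kilobase order the roles otherwise than CPM does.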

Other observations

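A few other genes of the mitotic machinery are given here, chosen after their values were seen from up to 4 called genes with the smallest adjusted p in each group of the longer list and each comparison. The tubulins TUBA1B and TUBB, building blocks of the spindle, were at 491 to 531 and 1177 to 1220.0 CPM in WT, 532 to 587 and 1311 to 1433 in KD and 456 to 469.6 and 1154 to 1198 in OE. Both were higher in KD than in WT, with log2 fold changes of 0.12 ± 0.04 and 0.19 ± 0.03 (SE; adjusted p = 0.0420 and 3.68e-05, edgeR), and both were lower in OE than in KD, with -0.27 ± 0.04 and -0.21 ± 0.03 (adjusted p = 3.68e-07 and 3.15e-06, edgeR). ZWILCH, part of the complex that brings dynein to kinetochores, gave 0.24 ± 0.05 in KD against WT (adjusted p = 0.00227) and -0.30 ± 0.05 in OE against KD (adjusted p = 4.61e-05, edgeR). MASTL, the Greatwall kinase that holds back the phosphatase opposing CDK1, gave 0.21 ± 0.07 (adjusted p = 0.0459) and -0.29 ± 0.07 (adjusted p = 0.00247, edgeR). By contrast, PDS5A, a cohesin regulator, was lower in KD than in WT (-0.14 ± 0.04, adjusted p = 0.0321) and higher in OE than in KD (0.28 ± 0.04, adjusted p = 4.37e-06, edgeR), and CEP192, a scaffold of centrosomes, was lower in KD than in WT (-0.23 ± 0.07, adjusted p = 0.0260, edgeR). Tubulin genes have near-identical paralogs and pseudogenes, so their counts are less certain.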
